A study of Homo sapiens with 4 samples.

Results

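Cyclin D1 (CCND1), LTO1, which overlaps its far end on the other strand, the other D cyclins (CCND2, CCND3) and the kinases that D cyclins activate (CDK4, CDK6) were followed through an RNA sequencing experiment in C4-2 cells. C4-2 cells descend from LNCaP, a human prostate cancer line, and express the androgen receptor. The members were taken by row name, 6 of the 59385 rows of the count table, and all 6 were among the 24431 rows with enough counts to test. The set was chosen by earlier results of these data, namely the counts of LTO1 beside those of CCND1 and the LTO1 difference between siEZH2 and siCTRL. There were 2 libraries from cells with a control small interfering RNA (siCTRL) and 2 from cells with one directed at EZH2 (siEZH2). EZH2 is the methyltransferase of Polycomb repressive complex 2, and the question was how expression differs when it is depleted. All 4 libraries come from this 1 line, with no other treatment named. The sources used here do not give the sequences of the small interfering RNAs, their dose or the time after transfection, nor do they say whether replicates were separate cultures. Differences between libraries may therefore be technical.

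D cyclins are the regulatory subunits that switch on CDK4 and CDK6 in the G1 phase of the cell cycle. The active kinases phosphorylate the retinoblastoma protein RB1, which then releases E2F transcription factors, and E2F switches on the genes for DNA replication. Growth factor and, in prostate cells, androgen signalling feed into this step, and INK4 proteins such as p18 (CDKN2C) block it by binding the kinases. LTO1 has a different role: with its partner YAE1 it brings the cytosolic iron-sulphur assembly machinery to ABCE1, a ribosome recycling factor. LTO1 and CCND1 lie next to each other in a region of chromosome 11 that is often amplified in tumours.

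The libraries held between 6162123 and 6867542 counts. The EZH2 row itself held 39 and 59 counts with siCTRL and 60 and 131 with siEZH2, so the depletion was not visible in this table and the libraries are named by their labels throughout. Per kb of row length it held 3.62 and 5.48 counts with siCTRL and 5.57 and 12.2 with siEZH2. That is little above the olfactory receptor background given below, so the row could show depletion only poorly. The 10 prostate luminal marker rows held between 225.7 and 425.6 counts per kb of row length, lowest in siEZH2 replicate 2. Markers of basal, leukocyte, endothelial and fibroblast cells held between 1.49 and 7.39 counts per kb, near the 1.30 to 6.27 counts per kb under 405 olfactory receptor rows, which serve as background because these genes are mostly silent outside the nose. None of the 24 markers was at 0 in every library. With siCTRL that background was 1.30 and 3.14 counts per kb and with siEZH2 4.64 and 6.27, so it was higher in both siEZH2 libraries. Its part in the results below was not tested.

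In the GRCh38 annotation of GENCODE release 29, CCND1 lies on the plus strand of chromosome 11 (69641087 to 69654474) and LTO1 on the minus strand (69653076 to 69675416). The genes meet tail to tail. Their exons share 497 bases in 2 blocks, 244 and 253 bases long, which are 6.31% of the exonic length of LTO1 and 10.3% of that of CCND1. All 497 bases lie in the 3′ untranslated region of CCND1, while 265 of them are coding in LTO1. The overlap rests on few isoforms: 3 of 18 LTO1 transcripts and 1 of 6 CCND1 transcripts reach it. The deposited length of the LTO1 row, 7872 bases, is the same as its exonic length in this annotation, as it would be if the row includes those isoforms. CDK4 (chromosome 12, 57747727 to 57756013, minus strand) stands in a similar arrangement with TSPAN31 (57738013 to 57750211, plus strand), which encodes a tetraspanin membrane protein. They share 1369 exonic bases, 43.2% of the exonic length of CDK4 and 25.4% of that of TSPAN31, and 277 of these are coding in CDK4. For every member other than LTO1 the deposited length differed from this annotation. It was 4761 bases against 4830 for CCND1 and 3094 against 3168 for CDK4. For TSPAN31 it was 5251 against 5385. The overlaps are therefore those of release 29, and the exons behind the deposited rows may differ.

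The sequences below show that inside the shared blocks strand alone separates the rows of a pair, while most exonic bases of each row lie outside them. They are 30-base stretches of reference transcripts from GENCODE release 29, written 5′ to 3′, and capitals mark 15 bases that both genes of a pair share. For LTO1 and CCND1 these are chr11:69654396-69654410, and for CDK4 and TSPAN31 chr12:57749490-57749504. Within a pair the capitals are reverse complements of each other.
LTO1-209 (minus strand, coding): cagctacgtagaactGCCGGTTACATGTTG
CCND1-201 (plus strand, 3′ untranslated): CAACATGTAACCGGCatgtttccagcagaa
CDK4-201 (minus strand, coding): gatgtttcgtcgaaaGCCTCTCTTCTGTGG
TSPAN31-206 (plus strand, not coding): CCACAGAAGAGAGGCctaaggtgagaaggg
A read that lies wholly within shared bases belongs to one row or the other by its strand only. The lower-case bases differ between the printed transcripts of a pair, so between these transcripts a read that reaches them also differs in sequence. For TSPAN31-206 they still lie in a shared block, 57749454 to 57749795, which another CDK4 transcript, CDK4-213, covers. Between those transcripts strand alone separates such reads too. The libraries came from a stranded kit, but the sources used here do not state how the counting treated strand. Values are therefore given as counts under a row, not as levels of that gene's mRNA.

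**Figure D1:**
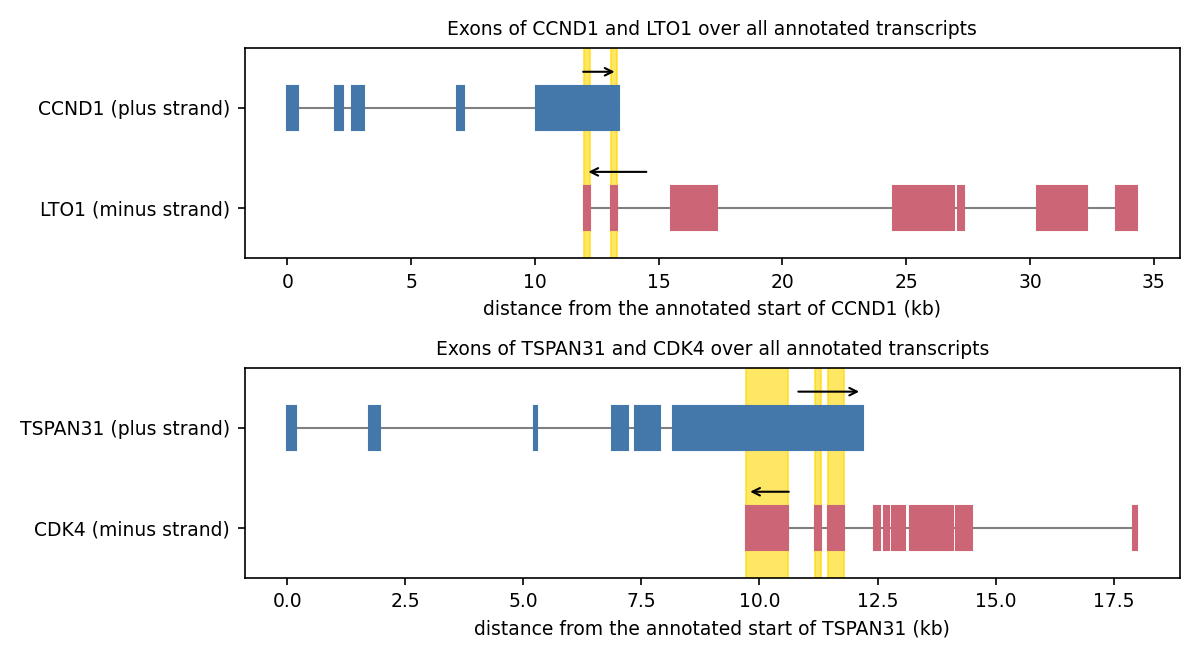
Exons over all annotated transcripts of CCND1 and LTO1 (upper panel) and of TSPAN31 and CDK4 (lower panel), as distance in kb from the annotated start of the plus-strand gene. Boxes are exons, arrows give the direction of transcription and yellow marks the 497 and 1369 exonic bases that the genes of a pair share.

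LTO1 held far more counts than the cyclin it faces. The LTO1 row had 5362 and 4254 counts with siCTRL and 11346 and 8860 with siEZH2. The CCND1 row had 223 and 305 against 336 and 371. Of the counts under both rows together, LTO1 took 96.0% and 93.3% with siCTRL and 97.1% and 96.0% with siEZH2 (exact 95% intervals of 95.5% to 96.5%, 92.5% to 94.0%, 96.8% to 97.4% and 95.6% to 96.4%, which cover counting error only). The intervals take each count as an independent read. Of counts from 1 to 20 in any row, 65.1% to 73.8% were even, so the intervals may be too narrow. The shares of the groups met at the edge, at 96.0% in siCTRL replicate 1 and siEZH2 replicate 2. Per kb of row length the share of LTO1 was still 89.4% to 95.3%.

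For CDK4 the row on the other strand was again the larger one. TSPAN31 had 15075 and 15548 counts with siCTRL and 9745 and 11170 with siEZH2. CDK4 had 376 and 322 against 409 and 375. TSPAN31 took 97.6% and 98.0% of the counts of this pair with siCTRL and 96.0% and 96.8% with siEZH2, and here the groups did not overlap.

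Set side by side per kb, the rows of the members formed an order that did not change between libraries. LTO1 stood highest, at 540.4 to 1441.3 counts per kb over the 4 libraries. CDK4 followed with 104.1 to 132.2 and CCND1 with 46.8 to 77.9. CCND3, the D cyclin best known from lymphoid cells, had 7.98 to 16.5, CDK6 5.31 to 7.44 and CCND2 1.75 to 4.51. No pair of neighbours in this order overlapped. Only the upper rows stood well clear of background. CCND1 lay at 12.4 to 35.9 times the olfactory receptor level of the same library and CDK4 at 19.3 to 93.1 times. CCND3 lay at 2.36 to 8.65 times, CDK6 at 0.873 to 4.07 times and CCND2 at 0.439 to 1.34 times. The CCND2 row thus could not be told from background at this depth.

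**Figure D2:**
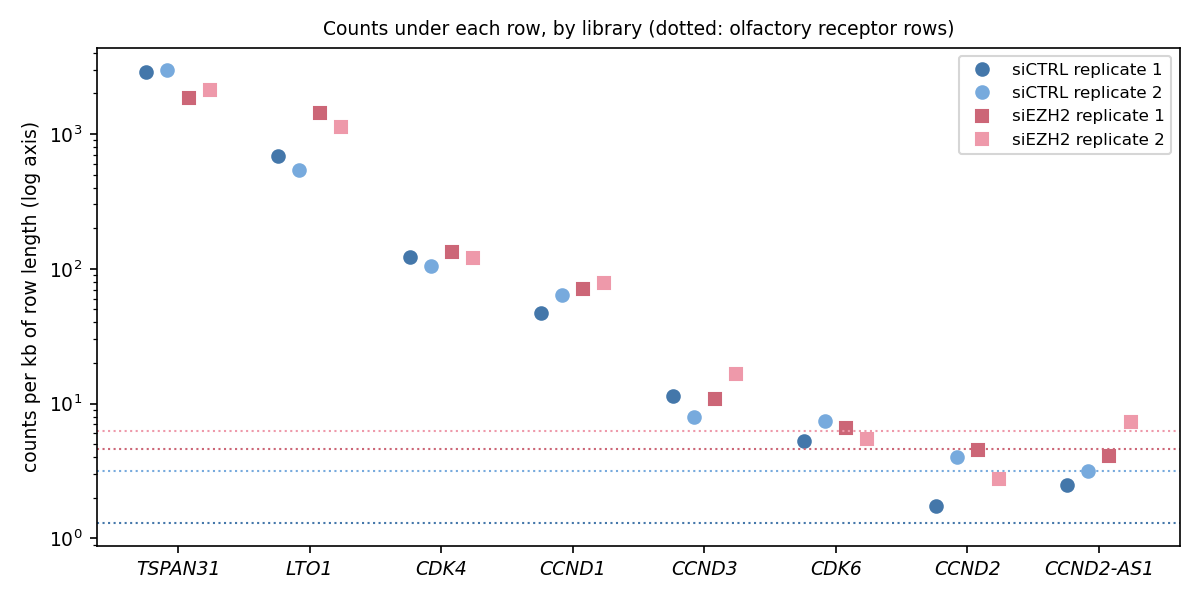
Counts per kb of row length (log axis) for the 6 members and the rows TSPAN31 and CCND2-AS1 in each of the 4 libraries, with dotted lines at the level of the 405 olfactory receptor rows in the same library. LTO1 (540.4 to 1441.3) and TSPAN31 stand far above CDK4 and CCND1, and CCND2 (1.75 to 4.51) sits among the dotted lines.

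Because the members were chosen by the LTO1 difference in this comparison, the fold changes of all 6 are given as a description. With library sizes scaled by the trimmed mean of M-values (TMM) over all tested rows, LTO1 stood at 1116.3 and 667.6 CPM (counts scaled to library size) with siCTRL and 1621.1 and 1095.7 with siEZH2. The means were 891.9 ± 317.3 and 1358.4 ± 371.5 CPM (SD, n = 2 each), which gave a log2 fold change of 0.61 ± 0.46 (SE). On this scale the groups overlapped, since siEZH2 replicate 2 lay just under siCTRL replicate 1. Before scaling they did not, and the mean count was 2.10 times as high with siEZH2. The LTO1 value depended on single libraries, at 0.21 when siCTRL replicate 2 was left out, 0.22 without siEZH2 replicate 1, and 0.96 when siCTRL replicate 1 was left out. It was positive under every scaling, tool and filter tried.

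CCND1 was level on the same scale. It stood at 46.4 and 47.9 CPM against 48.0 and 45.9, means of 47.1 ± 1.02 and 46.9 ± 1.5 CPM (SD, n = 2 each). Its log2 fold change was -0.01 ± 0.39 (SE), and all 4 libraries lay within a narrow range. Within each library, where scaling plays no part, LTO1 had 24.0 and 13.9 times the counts of CCND1 with siCTRL and 33.8 and 23.9 times with siEZH2. These ratios overlapped between the groups.

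Both kinase rows had negative log2 fold changes on that scale. CDK4 stood at 78.3 and 50.5 CPM with siCTRL and 58.4 and 46.4 with siEZH2, a log2 fold change of -0.30 ± 0.41 (SE). Those groups overlapped. CDK6 stood at 13.5 and 14.3 against 11.4 and 8.29 CPM, a log2 fold change of -0.50 ± 0.49 (SE), and both siEZH2 libraries lay below both siCTRL libraries. The CDK6 counts themselves, 65 and 91 against 80 and 67, overlapped. The other D cyclins had too few counts to be read closely. CCND3 had 65 and 46 counts against 63 and 95 (log2 fold change 0.01 ± 0.53 SE), and CCND2 had 14 and 32 against 36 and 22 (-0.02 ± 0.78 SE). In both rows the groups overlapped.

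TSPAN31, which is not a member, had the opposite sign to LTO1. It stood at 3138.4 and 2439.8 CPM with siCTRL and 1392.3 and 1381.4 with siEZH2, means of 2789.1 ± 493.9 and 1386.8 ± 7.75 CPM (SD, n = 2 each). Its log2 fold change was -1.01 ± 0.47 (SE) with a Benjamini-Hochberg adjusted p of 0.296 by edgeR's quasi-likelihood test. DESeq2 called it lower at an adjusted p of 0.0231, and limma-voom did not, at 0.150. The ratio of TSPAN31 to CDK4 counts within a library was 40.1 and 48.3 with siCTRL and 23.8 and 29.8 with siEZH2, without overlap. LTO1 had 0.356 and 0.274 times the counts of TSPAN31 with siCTRL and 1.16 and 0.793 times with siEZH2, a difference of 1.62 in the mean log2 ratio. These ratios need no scaling factor, and they were chosen after their values were seen. The other rows that face a member were small. CCND2-AS1, which shares 126 exonic bases with CCND2, had 11 and 14 counts against 18 and 32. CDK6-AS1, which shares 81 bases with CDK6, had 0 and 6 against 8 and 3 and was not tested.

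How the libraries are scaled decided the sign for most of these rows. Using only well-covered rows (200 counts or more in 2 libraries) to scale moved the median log2 fold change of all tested rows from 0.22 to 0.88. LTO1 then had 1.34 ± 0.18 (SE), at 734.8 and 620.8 CPM against 1889.6 and 1535.5, and the groups no longer overlapped. CCND1 changed sign to 0.68, CDK4 to 0.43, CDK6 to 0.17 and CCND2 to 0.57, while CCND3 went to 0.78. Of the 6 members LTO1 alone stayed above the median of all rows under both scalings. TSPAN31 kept its negative sign, at -0.28 ± 0.16 (SE).

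**Figure D3:**
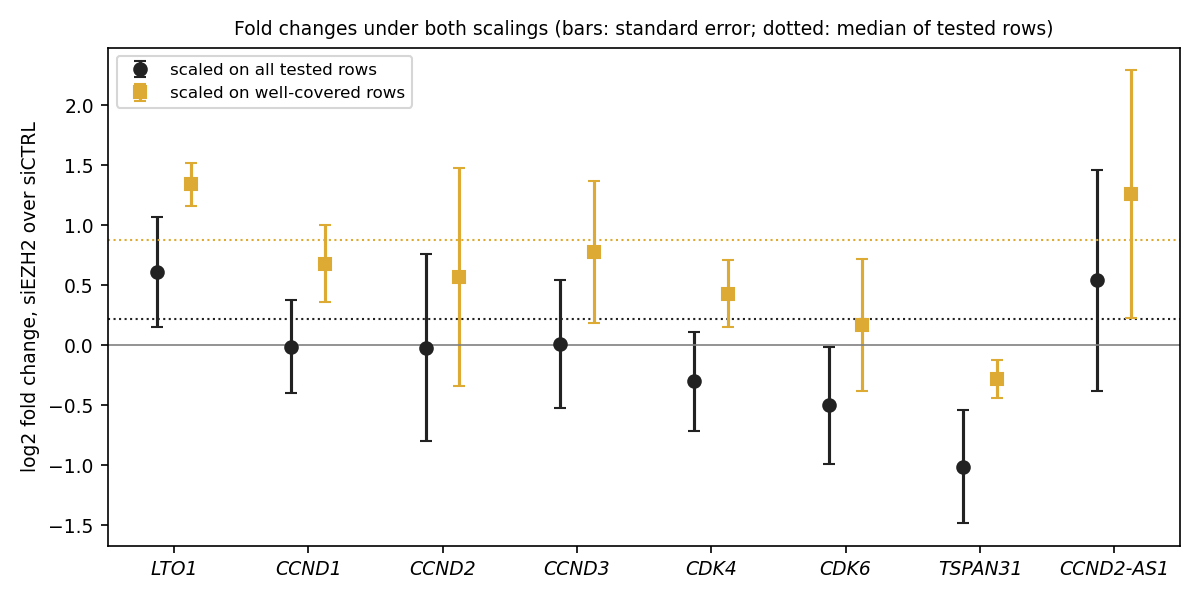
Log2 fold change of siEZH2 over siCTRL (bars show the standard error) for the 6 members and the rows TSPAN31 and CCND2-AS1, with libraries scaled on all tested rows (black) or on well-covered rows (yellow). Dotted lines mark the median of all tested rows, 0.22 and 0.88, and LTO1 lies above it under both scalings.

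Rows with many counts mostly had negative fold changes, and LTO1 did not. Of the 959 tested rows averaging 1000 counts or more, 16 had a positive log2 fold change (1.67%), and their median was -0.71. LTO1, with a mean of 7455.5 counts, was one of the 16. Among the 205 rows whose mean count lay within 2 times that of LTO1, 0 had a higher log2 fold change and 204 a lower one. CCND1 also lay above most rows of like counts, with 135 of 1975 above it against a median of -0.72. CDK4 had 266 of 1805 above it. For CCND3 and CDK6, in a range where the medians were 0.20 and 0.13, 4716 of 8216 and 5450 of 7387 rows lay above, and for CCND2, at a median of 0.53, 8881 of 12497 did. These ranks describe the contrast by which LTO1 was chosen and carry no test.

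**Figure D4:**
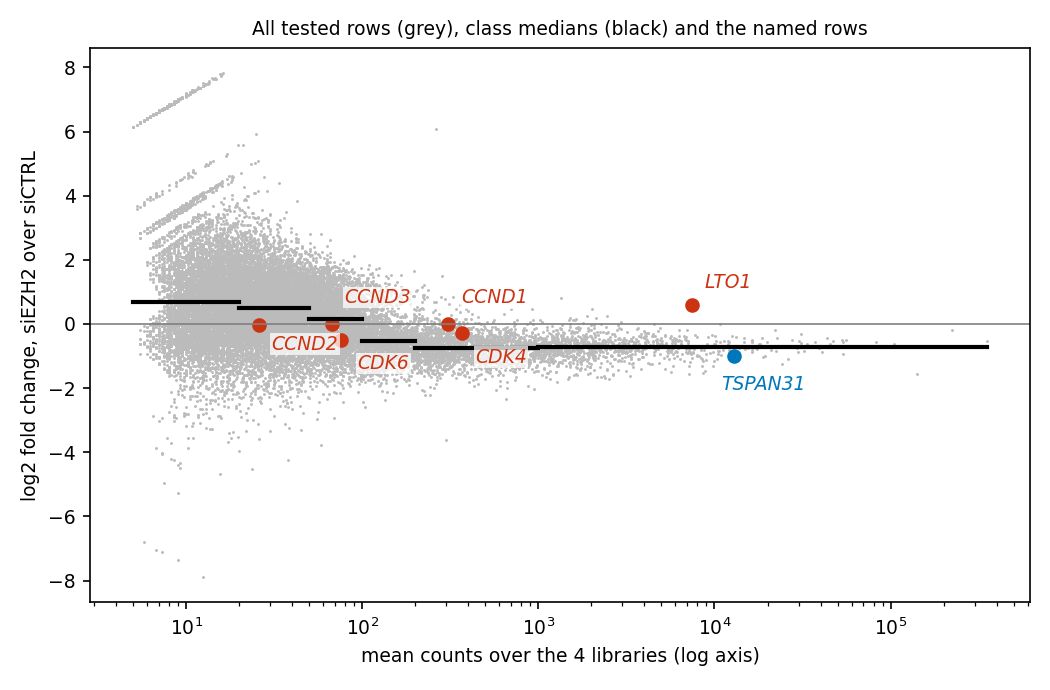
Log2 fold change of siEZH2 over siCTRL against the mean count over the 4 libraries (log axis) for all 24431 tested rows (grey), with the median of each count class (black bars). LTO1, at 0.61, lies above the cloud of rows averaging 1000 counts or more, whose median is -0.71, and TSPAN31 lies at -1.01.

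No member was called higher or lower by edgeR, limma-voom or DESeq2, which gave no adjusted p for CCND2, CCND3 and CDK6. The edgeR quasi-likelihood test called 0 of 24431 rows higher and 0 lower at a Benjamini-Hochberg adjusted p under 0.05 (0% in each direction). At an unadjusted p under 0.05 it gave 2083 rows higher (8.53%) and 1932 lower (7.91%), and 0 of the 6 members were among them. DESeq2 called 10 rows higher (0.0409%) and 858 lower (3.51%), and limma-voom 11 higher (0.045%) and 334 lower (1.37%), again with 0 of the 6 members. Both siEZH2 libraries exceeded both siCTRL libraries in CPM in 31.4% of tested rows and lay below them in 22.9%. By that measure 0 members were higher and 1, CDK6, was lower. In raw counts LTO1 and CCND1 were higher, as were 40.4% of tested rows, and 0 members were lower, against 12.8%. In CPM scaled on well-covered rows LTO1, CCND1, CCND3 and CDK4 were higher, as were 49.9% of tested rows, and 0 members were lower, against 6.76%. The members other than LTO1 and CCND1 were named with them as a family, and nothing is read from these counts.

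The rows whose pattern over the 4 libraries was most like that of LTO1, by the root mean square difference of centred log2 CPM among 4565 rows averaging 100 counts or more, were EP400 (0.093), PDXDC1 (0.11) and HTT (0.14). EP400 encodes a chromatin remodelling ATPase and HTT huntingtin. EP400 had 82 and 58 counts against 181 and 146, so it too had its highest value in siEZH2 replicate 1. Most like CCND1 were CKAP5 (0.036), DNAJB6 (0.052) and CACNA1C (0.054), none of which had a log2 fold change beyond -0.07. With 4 libraries such likeness is a description only.

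Genes that act on the cyclin D step were looked at as lists, and 0 rows of any list were called by edgeR. Of 7 CDK inhibitors 6 were tested, 3 with a positive and 3 with a negative log2 fold change, and their median was -0.16 against 0.22 over all tested rows. That median was -0.33 when siCTRL replicate 1 was left out, -0.07 when siCTRL replicate 2 was, -0.85 when siEZH2 replicate 1 was and -0.01 when siEZH2 replicate 2 was. CDKN2C, the inhibitor p18, had 107 and 163 counts against 57 and 91 (log2 fold change -1.30 ± 0.46 SE), and DESeq2 called it lower at an adjusted p of 0.0461. CDKN2A, which encodes p16 and ARF, had 48 and 52 counts against 60 and 85, under a row that faces CDKN2B-AS1. CDKN1A, the inhibitor p21, had 28 and 48 against 54 and 87. The CDKN1A row faces DINOL. Both had more counts in each siEZH2 library than in each siCTRL library, as did 40.4% of tested rows, at log2 fold changes of 0.08 and 0.46. In CPM the CDKN2A groups overlapped, at 9.99 and 8.16 against 8.57 and 10.5.

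The RB and E2F family had 13 of 13 rows tested, 5 positive and 8 negative, with a median of -0.13. Leaving out siCTRL replicate 1 or 2 gave -0.28 or 0.32, and leaving out siEZH2 replicate 1 or 2 gave -0.40 or -0.03. E2F5, a repressive E2F, held most counts, 4266 and 3540 against 4085 and 3952, and its row faces RBIS. RBL2, the pocket protein p130, had a log2 fold change of -0.32, and TFDP2, an E2F partner, -0.13. The median of this list was 0.47 and that of the inhibitors 0.44 when libraries were scaled on well-covered rows, so neither sign held. Other cyclins and CDKs had 12 of 14 rows tested, 3 positive and 9 negative, with a median of -0.66, which became 0.06 under that scaling. CCNA2, the S-phase cyclin A2, had 677 and 545 counts against 391 and 409 (log2 fold change -1.09 ± 0.41 SE), and DESeq2 called it lower at an adjusted p of 0.0366. The CCNA2 row faces EXOSC9. CCNH, a subunit of the CDK-activating kinase, had -0.99, and CCNE2, cyclin E2, -0.49.

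Replication genes switched on by E2F had 20 of 20 rows tested, 5 positive and 15 negative, with a median of -0.51, and 0.19 when scaled on well-covered rows. DESeq2 called 3 of them lower. MCM7, a helicase subunit, had 688 and 711 counts against 368 and 488 (log2 fold change -1.17 ± 0.40 SE, DESeq2 adjusted p = 0.0186). The MCM7 row faces AP4M1. TYMS, thymidylate synthase, had 809 and 659 against 389 and 612 (-1.05 ± 0.42 SE, DESeq2 adjusted p = 0.0412), and its row faces TYMSOS and ENOSF1. MYBL2, a transcription factor of proliferating cells named here after its values were seen, had 177 and 284 against 48 and 92 (-2.15 ± 0.45 SE), at an adjusted p of 0.00143 with DESeq2 and 0.00157 with limma-voom. MCM2, which held most counts, had -0.49. The share of all tested rows that DESeq2 called lower was 3.51%, which is not matched in coverage. The median coverage of this list was 85.6 counts. Tested rows of 50 to 100 counts had a median of 0.15, and those of 100 counts or more -0.68.

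Genes that set the level of D cyclins showed no common direction. Of 12 genes for D cyclin turnover 11 were tested, 6 positive and 5 negative, with a median of 0.41. It was 1.14 when scaled on well-covered rows, 0.01 with limma-voom, 0.02 with the replicate number as a block, 0.26 when siCTRL replicate 2 was left out and 0.21 when siEZH2 replicate 2 was. The best covered were DDB1, an adaptor of the CUL4 ubiquitin ligases (1721 and 1773 counts against 1458 and 1416), CUL1 (812 and 1109 against 670 and 567) and SKP2 (819 and 717 against 606 and 453). DESeq2 called CUL1, a ubiquitin ligase scaffold, lower (adjusted p = 0.027). Upstream inducers had 17 of 18 tested, 5 positive and 12 negative, with a median of -0.45 that became 0.21 when scaled on well-covered rows. ERBB2, a growth factor receptor, had -0.66, and the kinase BRAF had 0.06.

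LTO1 partners and the cytosolic iron-sulphur assembly genes did not share the LTO1 difference as a list, with 10 of 11 tested, 5 positive and 5 negative and a median of -0.24 (0.51 when scaled on well-covered rows). It was 0.26 when siCTRL replicate 1 was left out and -0.63 when siEZH2 replicate 1 was. CIAO1, a subunit of the targeting complex, had 32 and 30 counts against 93 and 92 (log2 fold change 1.12 ± 0.55 SE, edgeR adjusted p = 0.312). CIAO3 had 980 and 915 against 543 and 648 (-1.14 ± 0.40 SE), was called lower by DESeq2 (adjusted p = 0.0211), and its row faces HAGHL. MMS19, the scaffold of that complex, had -0.60. The neighbours of CCND1 on chromosome 11 had 14 of 17 tested, 9 positive and 5 negative, with a median of 0.40 against 0.22 over all tested rows. Their median coverage was 45.4 counts, and tested rows of 20 to 50 counts had a median of 0.49, so the neighbours did not lie above rows of like counts. Scaled on well-covered rows their median was 1.07. It was 0.24 when siCTRL replicate 1 was left out, 0.26 when siEZH2 replicate 1 was and 0.73 when siCTRL replicate 2 was. PPFIA1, the best covered of them, had 308 and 334 counts against 233 and 280, SHANK2 had 38 and 112 against 90 and 155, and CPT1A had 98 and 106 against 116 and 63. FGF19, FGF4 and FGF3, which lie beside LTO1 on its other side, had at most 26 counts in any library, so the large LTO1 counts did not extend to those rows.

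Because LTO1 and TSPAN31 face cell cycle genes, rows that face a gene of these lists were set beside them, a choice made after their values were seen. There were 23 such rows averaging 100 counts or more, apart from the members. In counts, 0 of the 23 were higher in both siEZH2 libraries than in both siCTRL libraries and 18 were lower, against 12.7% and 42% of the 4566 tested rows of that coverage. In CPM 0 were higher and 21 lower, against 5.69% and 67% of those rows, and in CPM scaled on well-covered rows 2 were higher and 8 lower, against 26.3% and 19.5%. Of the 13 that face inhibitors, RB or E2F members, other cyclins or replication genes, 12 were lower in counts, and their median log2 fold change was -1.32, against -0.68 for rows of that coverage. ENOSF1, which faces TYMS over 967 bases, had 12347 and 11181 counts against 4694 and 7284 (DESeq2 adjusted p = 0.0034). INTS8, which faces CCNE2 over 1629 bases, had 2856 and 2281 against 963 and 1508 (DESeq2 adjusted p = 0.00351). PMEL, which shares 89 bases with CDK2, had 1725 and 1648 against 754 and 903 (DESeq2 adjusted p = 0.00262). ENOSF1, INTS8 and PMEL were named with their values known. AP4M1, which faces MCM7 over 392 bases, had the highest mean count of the 13, with 10577 and 11950 against 9479 and 9664. Its log2 fold change was -0.68, or 0.03 when scaled on well-covered rows, and DESeq2 did not call it (adjusted p = 0.0808). DESeq2 called 8 of these 13 lower and limma-voom 5, while edgeR called 0. Over all tested rows DESeq2 and limma-voom called 3.51% and 1.37% lower. Those shares are not matched in coverage, since 4566 of the 24431 tested rows averaged 100 counts or more. The share called at like coverage was not computed. The other 10 rows had a median of -0.70, with 6 lower in counts, 1 called lower by DESeq2 and 0 by limma-voom, and 0 lower in CPM scaled on well-covered rows. Over all 23 rows the median was -0.83. The split into 13 and 10 was also made with the values known. Scaled on all tested rows, TSPAN31 had the same sign as these rows, and LTO1 the opposite one. That negative sign was also held by 4063 of the 4566 tested rows averaging 100 counts or more.

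**Figure D5:**
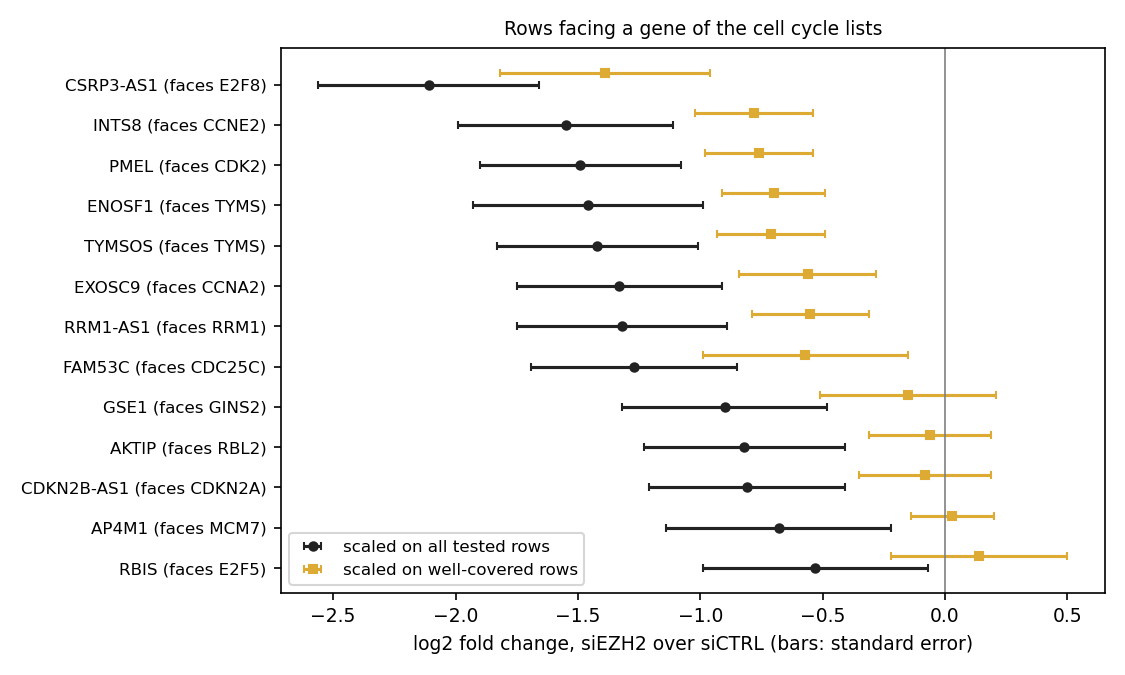
Log2 fold change of siEZH2 over siCTRL (bars show the standard error) for the 13 rows averaging 100 counts or more that face a gene of the inhibitor, RB and E2F, cyclin or replication lists, scaled on all tested rows (black) or on well-covered rows (yellow). Every black point is negative, as were 4063 of the 4566 tested rows averaging 100 counts or more. On the second scale 8 of the 13 rows had no overlap between the groups, all lower, against 19.5% lower among those 4566 rows.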

How the data were processed

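Total RNA from 4 C4-2 libraries was sequenced with a stranded kit, per the labels' protocols. Named in the submitters' processing notes, without role or order, are featureCounts 2.0.3, STAR 2.7.10b, limma, edgeR and GRCh38 (hg38). Annotation release and strand setting were not given in the sources used here. Whole-number counts per gene row were deposited, neither normalised nor pooled, with a row length. Groups and replicate numbers came from the titles. Of counts from 1 to 20, 65.1% to 73.8% were even, so low counts may not stand for independent reads.

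Counts were tested with edgeR 4.0.16 (R 4.3.3): filterByExpr (24431 rows kept, 34954 left out), TMM scaling (factors 0.704 and 0.945 for siCTRL, 1.12 and 1.34 for siEZH2), glmQLFit and glmQLFTest without covariates, and Benjamini-Hochberg adjustment over all kept rows with calls at 0.05. CPM used the same effective library sizes. Standard errors were computed as the fold change over the root of F. The fit was first tested on simulated counts. With 2 libraries against 2 no exact permutation test was run. Exon overlaps on opposite strands of at least 1 base were taken from GENCODE 29 over all isoforms. Sequences are from its transcripts. Facing genes were matched to rows by symbol or newer symbol.

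Members and the 8 lists were chosen with earlier results of these data known. Named were the members, rows facing them, the 3 best-covered tested rows of each list without calls, and the 3 rows most like LTO1 and CCND1, except 1 gene that is not reported here. Alternatives were RLE, upper-quartile and well-covered-row scaling, DESeq2 1.42.0, limma-voom (limma 3.58.1), 2 other filters, a replicate block, and leaving out each library. Plots used Python 3.11.15 and matplotlib 3.10.9.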

Additional observations from a re-analysis of the deposited data

How the results depend on the processing

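LTO1 kept a positive log2 fold change under all 12 alternatives (0.21 to 1.34) and TSPAN31 a negative one (-1.26 to -0.28), TSPAN31 passing the threshold with DESeq2 (-1.14) and with the replicate block (-1.0). Every member other than LTO1 changed sign under at least 1 alternative. Scaling on well-covered rows also raised the median of all tested rows, from 0.22 to 0.88. The cause of the sign changes was not tested. With scaling on well-covered rows CCND1 had 0.68, CCND2 0.57, CDK4 0.43 and CDK6 0.17. With at least 50 counts in 2 libraries CCND1 had 0.38 and CDK4 0.12, while CCND2 and CCND2-AS1 were no longer tested. CCND3 turned negative with RLE factors (-0.14), upper-quartile factors (-0.03), DESeq2 (-0.14) and no low-count filter (-0.07). Leaving out each library gave 0.21 to 0.96 for LTO1, -0.12 to 0.01 for CCND1, -0.64 to 0.36 for CCND2, -0.46 to 0.45 for CCND3, -0.65 to -0.02 for CDK4, -0.83 to -0.30 for CDK6, 0.18 to 0.73 for CCND2-AS1 and -1.26 to -0.89 for TSPAN31. The LTO1 share of the counts under LTO1 and CCND1 was 1.89 percentage points higher with siEZH2, 2.94 per kb, and 0.545 to 3.24 with each library left out.

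Calls over all rows, 0 higher and 0 lower, became 1 and 12 with RLE factors, 10 and 858 with DESeq2, 11 and 334 with limma-voom, 12 and 68 with no low-count filter and 248 and 1079 with the replicate block. They ran from 0 to 61 higher and from 1 to 173 lower with each library left out, the highest of both without siEZH2 replicate 1. Same-numbered libraries deviated together with a correlation of 0.0502 across tested rows, and no label pairs them. With 2 libraries a group that correlation cannot exclude an effect shared by replicate number. In both groups replicate 1 had the lower TMM factor, 0.704 against 0.945 and 1.12 against 1.34. The calls with the block are therefore not read as pairing. List members called became 1 CDK inhibitor, 1 other cyclin or CDK, 3 replication genes, 1 turnover gene and 1 iron-sulphur gene with DESeq2, 1 replication gene with limma-voom and 1 with no low-count filter. With the replicate block they were 2 other cyclins or CDKs, 3 replication genes, 2 turnover genes and 1 iron-sulphur gene. Leaving out each library gave 0 to 1 for the replication and iron-sulphur lists and 0 for the other lists. Of the 8 list medians, 6 took the other sign under at least 1 alternative. At this depth and spread, a common dispersion of 0.216, small differences in rows like CCND2 and CCND3 were not detectable.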
